A study of Homo sapiens with 8 samples.

Results

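The genes described are 45 collagen, matrix glycoprotein, proteoglycan and crosslinking enzyme genes, with laminins left out. They were chosen by name and not by a measured value, though with earlier results of these data known. They are 45 of the 25702 genes counted in 8 RNA-seq libraries of SUIT2, a human pancreatic ductal adenocarcinoma (PDA) cell line, with no other cell type named in the labels. The cells carried either a scramble shRNA (shScr, 4 libraries) or an shRNA against EN1, a homeobox transcription factor, from 1 of 2 constructs (shEN1 #1 and shEN1 #2, 2 libraries each). No further allele, drug or time point separates the groups, and every library comes from the same line after transduction. The labels do not say whether replicates came from separate cultures, so p-values measure the spread between these libraries, which may be technical.

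The extracellular matrix of a pancreatic tumour includes interstitial matrix and basement membrane. Interstitial matrix is built from fibrillar collagens with small leucine-rich proteoglycans and is laid down mostly by fibroblasts and stellate cells. The basement membrane under epithelium is a sheet of collagen IV and laminin networks joined by nidogen and heparan sulfate proteoglycans. Matricellular glycoproteins such as thrombospondins signal to cells, syndecans and glypicans hold growth factors at the cell surface, and lysyl oxidase-like enzymes crosslink collagen.

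Libraries held between 33423590 and 37810604 counts, so a floor of 3 counts stood at 0.0762 to 0.0921 CPM (read counts scaled to a common, TMM-normalized library size). EN1 was first examined as the targeted gene. It stood at 4.10, 4.50, 4.93 and 2.51 CPM in shScr replicates 1 to 4, at 5.77 and 5.41 CPM in shEN1 #1 replicates 1 and 2, and at 1.35 and 6.70 CPM in shEN1 #2 replicates 1 and 2. Only shEN1 #2 replicate 1 lay below every shScr library, and 3 of 4 libraries labelled shEN1 lay above all of them. The log2 fold change of EN1 was 0.26 (SE 0.43, edgeR adjusted p = 1.00), so groups are called here by their labels. Libraries also resembled each other across labels. The smallest of 28 pairwise differences, a root mean square of 0.264 log2 units, was between shScr replicate 4 and shEN1 #2 replicate 1, while shEN1 #2 replicate 1 differed from its own replicate 2 by 0.635. Next, also across labels, came shScr replicate 1 with shEN1 #1 replicate 2 (0.321) and shScr replicate 2 with shEN1 #2 replicate 2 (0.333). A further pair across labels, shScr replicate 3 and shEN1 #1 replicate 1, differed by 0.385. The first and last of these pairs are the 4 libraries later called standing apart. The last was less distinct, as shScr replicate 3 differed from shEN1 #2 replicate 2 by 0.405. Among libraries kept, shScr replicate 2 and shEN1 #1 replicate 2 differed by 0.392.

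About as large a share of these genes as of all genes was expressed in SUIT2. Of the 45 genes, 22 reached 1 CPM in every library, 6 reached it in some libraries and 17 in none. This was 48.9%, 13.3% and 37.8% of the members, against 46.3%, 6.84% and 46.8% of all 25702 genes. Without shScr replicate 4 and shEN1 #2 replicate 1, the number in every library was again 22 and that in none 19. With shScr replicate 3 and shEN1 #1 replicate 1 left out as well, these were 22 and 21. The highest shares above 1 CPM in every library were 2 of 3 crosslinking enzymes, 4 of 7 non-fibrillar collagens outside the basement membrane and 7 of 13 matrix glycoproteins, and the lowest was 1 of 5 fibrillar collagens. Genes known as products of stromal cells were among those without a count. COL1A2 and COL3A1 (interstitial fibrillar collagens), POSTN (periostin), BGN, DCN and LUM (biglycan, decorin and lumican, small leucine-rich proteoglycans) had 0 counts in all 8 libraries, which allows each up to the floor of 0.0762 to 0.0921 CPM, depending on the library. Counts of few reads are not independent molecules, since 68.3% to 72.4% of counts between 1 and 20 were even. The floor treats counts as independent and covers counting error only, so the levels allowed could be higher.

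**Figure D1:**
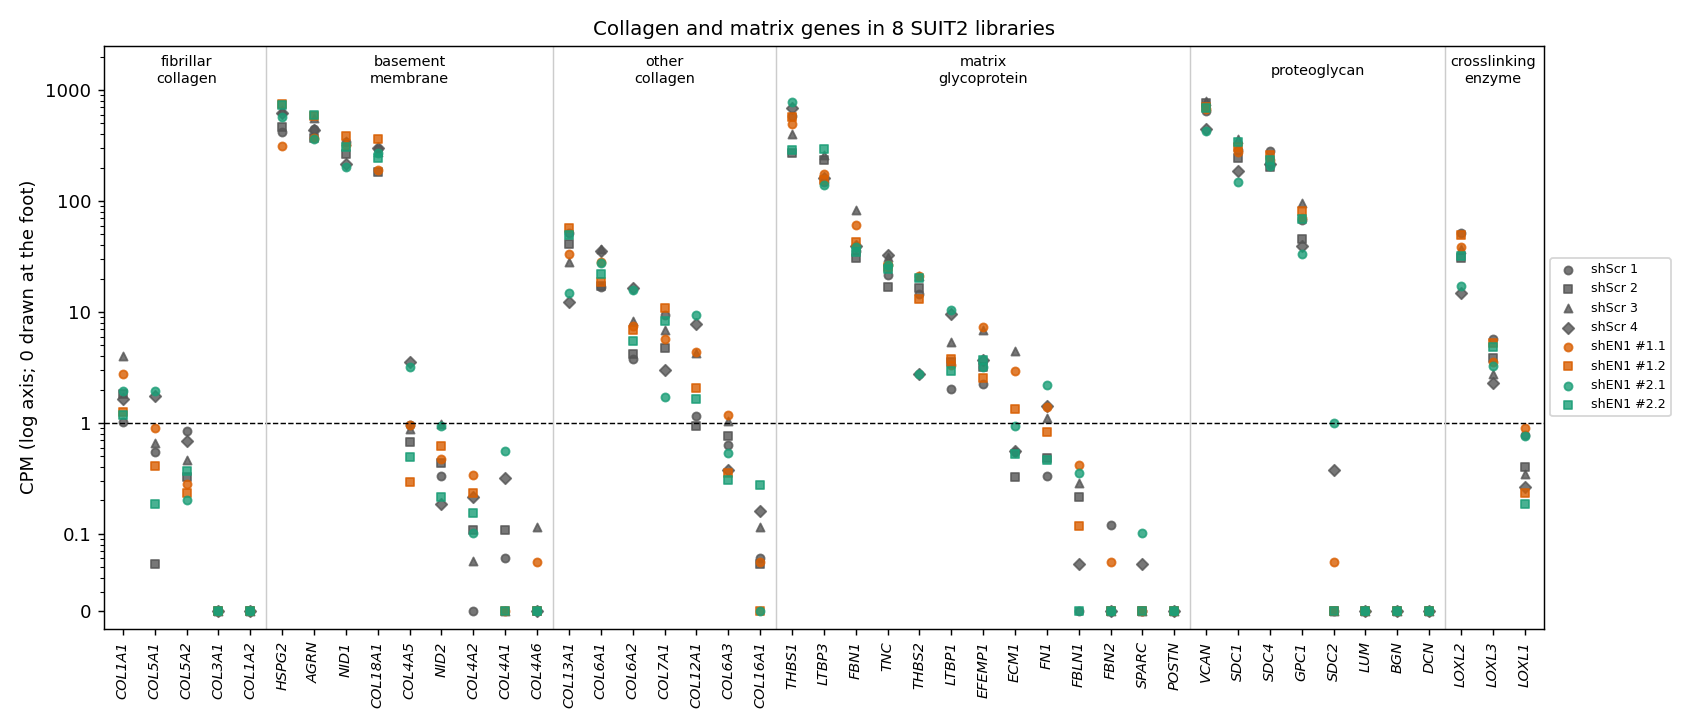
Level of all 45 genes in each of 8 libraries, grouped by role (x axis, genes; y axis, CPM on a log axis, with 0 drawn at the foot). Each point is 1 library, grey for shScr and coloured for shEN1 (construct.replicate), and the dashed line is 1 CPM. HSPG2, VCAN and THBS1 lie above 200 CPM in all libraries, while 6 genes lie at 0 in all of them.

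Most markers of other cell types were low. Of 12 fibroblast and stellate markers, 1 reached 1 CPM in every library (ACTA2, smooth muscle actin, 2.13 to 15.4 CPM), 10 reached it in none and 5 (THY1, DPT, CXCL12, MFAP5 and C7) were at 0 in all. Their summed level was 2.80 to 18.1 CPM. All 8 endothelial markers stayed at or under 0.631 CPM, and of 8 immune markers only CD68, a lysosomal protein, was at 1 CPM in every library while PTPRC, the pan-leukocyte marker, was at 0. All 6 ductal epithelial markers were expressed, with a sum of 11436 to 18541 CPM.

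Basement membrane genes split by component. The heparan sulfate proteoglycan perlecan (HSPG2, chr1:22148737-22263803 in GRCh37) stood at 421, 465, 667 and 625 CPM in shScr replicates 1 to 4, at 312 and 754 CPM for shEN1 #1 and at 569 and 727 CPM for shEN1 #2. Its lowest and highest libraries carried the same construct. Agrin (AGRN, chr1:955500-991498), a proteoglycan of the same kind, lay at 448, 371, 560 and 438 CPM in shScr and at 368, 587, 360 and 594 CPM in shEN1. Nidogen-1 (NID1, chr1:236139130-236228409), which bridges laminin to collagen IV, lay at 338, 263, 351 and 215 CPM in shScr and at 319, 386, 202 and 309 CPM in shEN1. The groups overlapped for all of these. COL18A1, whose collagen XVIII releases endostatin, ranged from 184 to 359 CPM. Against this, 3 of the 4 collagen IV chain genes among the members stayed below 1 CPM in every library. COL4A1 was at 0 to 0.56 CPM and COL4A2 at 0 to 0.34 CPM, with 40 and 43 counts over all 8 libraries, and COL4A6 had 6 counts. The annotated ends of COL4A1 and COL4A2 overlap on opposite strands, and whether the counting used strand is not given, so these genes could share reads there. COL4A5 reached 1 CPM in some libraries, at 0.96, 0.67, 0.89 and 3.52 CPM in shScr and 0.95, 0.29, 3.17 and 0.49 CPM in shEN1, with shScr replicate 4 and shEN1 #2 replicate 1 above the rest. COL4A4, a collagen IV chain gene outside the 45, also did so in some libraries, at 0.34 to 2.05 CPM. NID2, the second nidogen, stood at 0.19 to 0.98 CPM. Per kilobase of exon, NID1 exceeded NID2 by 230 to 1538 times in a library. NID2 held only 7 to 37 counts in a library, so this range is imprecise.

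The near-zero and the highly expressed genes of this group can be set beside each other at their promoters. COL4A1 and COL4A2 are transcribed in opposite directions from a shared start region, shown first, and HSPG2 and NID1 follow as expressed basement membrane genes. All sequences are from RefSeq, GRCh38.p14. They lie at chr13:110307158-110307283 (plus strand, the bases between both starts), chr1:21937311-21937560 (minus strand) and chr1:236065091-236065340 (minus strand), the latter pair being the 250 bases before the start. Capitals mark GC boxes (GGGCGG) and CCAAT boxes (CCAAT), searched on both strands.
COL4A1-COL4A2: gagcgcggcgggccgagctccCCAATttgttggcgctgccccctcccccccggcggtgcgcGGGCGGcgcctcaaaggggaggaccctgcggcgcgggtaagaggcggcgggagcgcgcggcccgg
HSPG2: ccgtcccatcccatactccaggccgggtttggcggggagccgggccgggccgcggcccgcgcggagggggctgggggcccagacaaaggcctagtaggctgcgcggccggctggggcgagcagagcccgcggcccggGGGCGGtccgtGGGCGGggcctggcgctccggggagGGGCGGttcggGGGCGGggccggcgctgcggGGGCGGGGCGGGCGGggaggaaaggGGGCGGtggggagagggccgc
NID1: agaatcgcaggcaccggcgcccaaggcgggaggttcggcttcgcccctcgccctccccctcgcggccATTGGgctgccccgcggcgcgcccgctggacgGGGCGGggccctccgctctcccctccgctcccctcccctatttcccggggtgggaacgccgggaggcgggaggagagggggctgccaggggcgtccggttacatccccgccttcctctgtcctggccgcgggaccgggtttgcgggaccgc
Both motifs occur once in the COL4A1-COL4A2 region and once in NID1, while HSPG2 holds 8 GC boxes, some overlapping, and no CCAAT box. A promoter window was found for 34 of 45 members. GC boxes were in 23 of them (67.6%, against 42.4% of all 27195 windows) and CCAAT boxes in 10 (29.4% against 33%). The letters TAATTA, the core that Engrailed proteins are known to bind, were in 0 of 34 windows and in 4.51% of all windows, a statement about these 250 bases only.

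Among fibrillar collagens, COL1A1 alone reached 1 CPM in every library, at 1.02 to 3.99 CPM, without its partner COL1A2. Its lowest library, shScr replicate 1, held 34 counts and lay close to the threshold. COL5A1 ranged from 0.054 to 1.93 CPM. COL5A2 lay at 0.84, 0.32, 0.46 and 0.69 CPM in shScr and at 0.28, 0.24, 0.20 and 0.37 CPM in shEN1. Its groups overlap by 1 shScr library.

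Among the non-fibrillar collagen members outside the basement membrane, the highest means per kilobase were those of COL6A1 (4.59 CPM per kilobase) and COL13A1 (3.13). COL13A1 (chr10:71561636-71724031), a transmembrane collagen of cell junctions, stood at 51.7, 41.3, 28 and 12.4 CPM in shScr and at 33, 57.7, 14.9 and 49.2 CPM in shEN1. The lowest libraries of both labels were shScr replicate 4 and shEN1 #2 replicate 1. COL7A1 (chr3:48601506-48632762), the anchoring fibril collagen that fixes basement membrane to the tissue below, showed the same lows, at 9.37, 4.77, 6.91 and 2.99 CPM in shScr and 5.68, 10.8, 1.70 and 8.23 CPM in shEN1. COL12A1 (chr6:75794042-75915983), a collagen on the surface of fibrils, went the other way in the same libraries, at 1.14, 0.94, 4.27 and 7.76 CPM in shScr and 4.37, 2.06, 9.37 and 1.63 CPM in shEN1. Genes for the chains of collagen VI, a beaded filament collagen, differed in level. COL6A1 lay at 16.6 to 37.2 CPM, COL6A2 at 3.74 to 16.5 CPM and COL6A3 at 0.31 to 1.18 CPM. Per kilobase, COL6A1 exceeded COL6A2 by 1.69 to 4.31 times and COL6A3 by 88.6 to 371 times. COL6A3 held only 10 to 42 counts in a library, so the latter range is imprecise. COL16A1 held 25 counts in all.

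Of the glycoproteins, THBS1 (thrombospondin-1, an activator of latent TGF-beta; chr15:39873280-39891667) was highest, at 580, 274, 398 and 683 CPM in shScr and 490, 569, 789 and 289 CPM in shEN1. Its relative THBS2 (chr6:169615875-169654145) lay at 14.6, 16.5, 21.1 and 2.78 CPM in shScr and 21, 13.1, 2.74 and 20.3 CPM in shEN1. The libraries where THBS1 was highest are those where THBS2 was lowest, and the ratio of THBS1 to THBS2 per kilobase ran from 11.2 to 226. Their promoters, from RefSeq GRCh38.p14 at chr15:39580829-39581078 (plus strand) and chr6:169253847-169254096 (minus strand), are shown because both proteins share a family while their levels differ. Capitals mark GC, CCAAT and TATA boxes (TATAAA) on either strand.
THBS1: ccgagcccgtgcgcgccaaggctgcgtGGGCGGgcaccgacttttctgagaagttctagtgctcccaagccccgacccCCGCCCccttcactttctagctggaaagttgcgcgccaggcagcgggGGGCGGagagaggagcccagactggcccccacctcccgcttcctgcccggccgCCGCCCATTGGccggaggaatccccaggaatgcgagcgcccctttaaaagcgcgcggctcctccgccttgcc
THBS2: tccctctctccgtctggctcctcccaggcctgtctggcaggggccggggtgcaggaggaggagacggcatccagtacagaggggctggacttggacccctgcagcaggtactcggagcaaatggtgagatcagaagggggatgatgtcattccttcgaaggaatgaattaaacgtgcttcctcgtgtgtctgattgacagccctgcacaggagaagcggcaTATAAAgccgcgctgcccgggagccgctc
The THBS1 window holds GC and CCAAT boxes and the THBS2 window a TATA box with no GC box. TATA boxes were in 6 of 34 member windows (17.6%, against 11.1% of all windows), namely those of COL6A2, COL7A1, COL13A1, ECM1, POSTN and THBS2. Latent TGF-beta binding protein LTBP3 stood at 139 to 295 CPM and LTBP1 at 2.02 to 10.4 CPM. FBN1, the fibrillin of elastic microfibrils, was at 30.8 to 82.6 CPM and TNC, tenascin-C, at 16.9 to 32.6 CPM. FN1, fibronectin, was low at 0.33 to 2.21 CPM, and EFEMP1 lay at 2.26 to 7.36 CPM. ECM1 (chr1:150480538-150486265) stood at 0.54, 0.32, 4.47 and 0.56 CPM in shScr and 2.94, 1.32, 0.94 and 0.52 CPM in shEN1, with shScr replicate 3 and shEN1 #1 replicate 1 above the others. SPARC and FBN2 had 6 counts each, and FBLN1 53.

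Of 8 proteoglycan members, SDC4, SDC1, VCAN and GPC1 reached 1 CPM in every library and the others in none. SDC4, a syndecan of focal adhesions (chr20:43953928-43977064), had the smallest spread of the 31 tested members, at 281, 203, 236 and 214 CPM in shScr and 236, 262, 205 and 233 CPM in shEN1. SDC1 (chr2:20400558-20425194), the main epithelial syndecan, lay at 287, 246, 362 and 186 CPM in shScr and 279, 307, 148 and 339 CPM in shEN1. VCAN, the large secreted proteoglycan versican (chr5:82767437-82878122), lay at 648, 773, 791 and 446 CPM in shScr and 675, 703, 429 and 689 CPM in shEN1. For SDC1 and VCAN the lowest libraries of each label were again shScr replicate 4 and shEN1 #2 replicate 1. GPC1, glypican-1, ranged from 33.2 to 96.8 CPM. SDC2 was at 0 to 0.99 CPM, with 0.37 and 0.99 CPM in shScr replicate 4 and shEN1 #2 replicate 1. LOXL2 lay at 15.0 to 51.4 CPM, LOXL3 at 2.27 to 5.66 CPM and LOXL1 at 0.18 to 0.90 CPM.

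Levels between genes are compared per kilobase of exon. Ranked so, by the mean over 8 libraries, SDC4 (89.5 CPM per kilobase) came first, followed by SDC1 (74.5), THBS1 (55.6), NID1 (51.3), VCAN (43.9) and AGRN (43.3). COL18A1 (31.3) and HSPG2 (31.3) came next and then LTBP3 (17), with GPC1 at 9.63. The ratio of SDC1 to SDC4 per kilobase was 0.521 to 1.11 in a library, and that of HSPG2 to AGRN 0.505 to 0.938. In CPM, 10 of the 45 genes held 94.0% of the members' sum, which was 3239 to 4409 CPM, with a mean of 3690 ± 445 (SD, n = 4) in shScr and 3777 ± 522 (SD, n = 4) in shEN1.

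**Figure D2:**
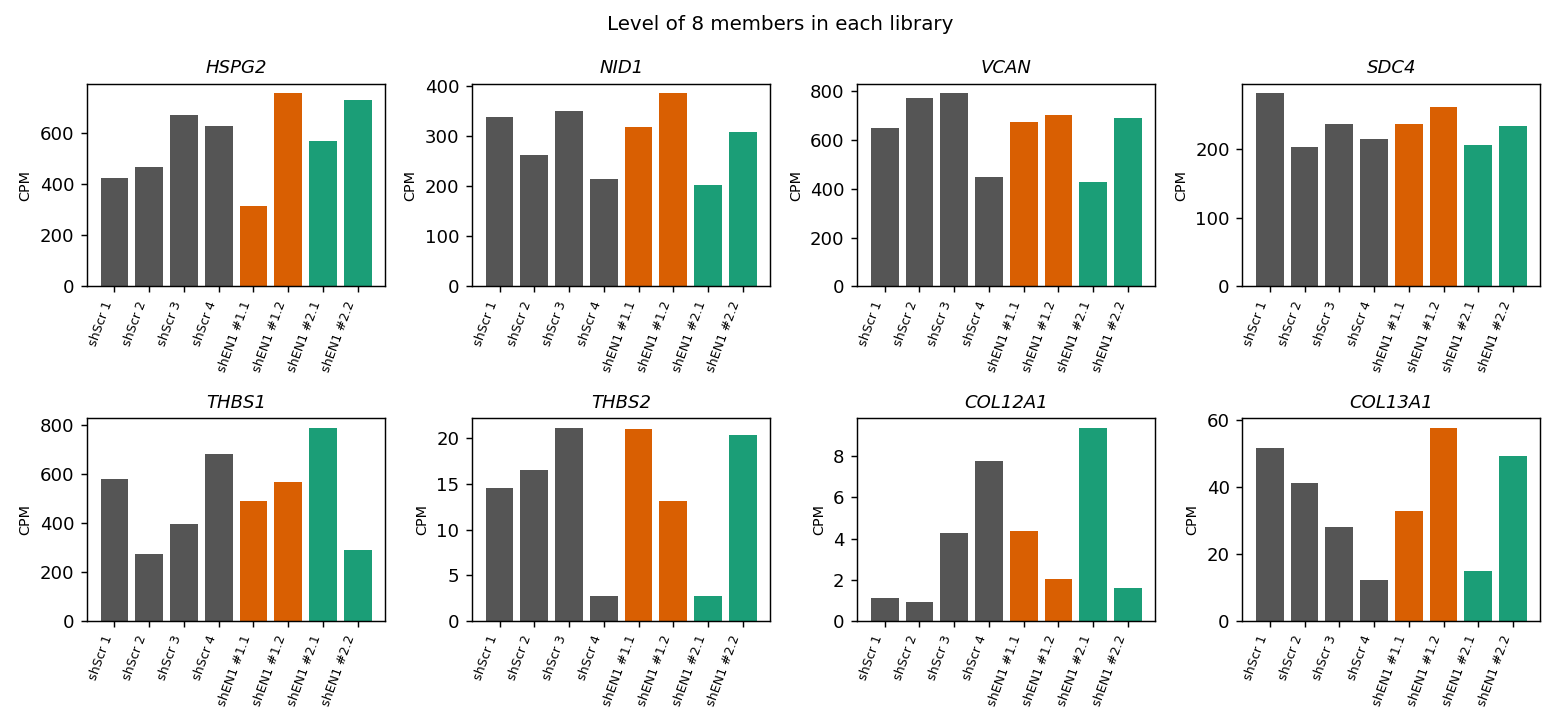
CPM of 8 genes in each library (x axis, label and replicate; y axis, CPM from 0; 1 bar per library, grey shScr, orange shEN1 #1, green shEN1 #2). THBS2 is at 2.78 and 2.74 CPM in shScr replicate 4 and shEN1 #2 replicate 1 and at 13.1 CPM or more elsewhere, whereas SDC4 varies from 203 to 281 CPM.

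Whether EN1 shRNA went with a change in these genes was tested across all genes by edgeR's quasi-likelihood test. No gene of 14333 passed an adjusted p of 0.05 between libraries labelled shEN1 and shScr (0%), nor for shEN1 #1 against shScr (0%), shEN1 #2 against shScr (0%) or between the constructs (0%), and so 0 of the 31 members that passed the filter on low counts did in any of these. At an unadjusted p under 0.05 there were 44 genes (0.307%) and 1 member, COL5A2 (log2 fold change -1.09, SE 0.49, unadjusted p = 0.0493 by edgeR, exact permutation p = 0.0571), which is named because of this value. COL5A2 held only 8 to 28 counts in a library. In the pooled comparison no member reached this threshold by DESeq2, nor by edgeR without the filter on low counts. The unadjusted count was 94 for shEN1 #1 (0.656%), 43 for shEN1 #2 (0.3%) and 153 between constructs (1.07%), with 0 members in each. DESeq2 called 2 genes in the pooled comparison (0.014%), 3 for shEN1 #1 (0.0209%) and 0 in the other comparisons, none of them a member. The groups did not overlap for 60 genes (0.419%) and for 0 members. When 200 genes were changed in counts simulated from these libraries, edgeR found 48.5% of them at a 2-fold change and 84% at a 4-fold change. Those genes were drawn from all tested genes, with noise independent between genes and no likeness between libraries built in. Tested members varied more between libraries than that (median SD of log2 CPM 0.473, against 0.249 in all tested genes). Recovery for the members themselves was not measured.

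Of the 31 tested members, 20 had a higher and 11 a lower fitted value in shEN1 (64.5% higher, against 48.9% of all tested genes), with a median log2 fold change of 0.033 against -0.0028. For shEN1 #1 alone 21 were higher, and for shEN1 #2 alone 13 (both comparisons share the shScr libraries). Most values did not hold a direction. Of 31 members, 28 changed sign in at least 1 fit that left out a library, all but COL5A2, FN1 and LOXL3. Sign changes were not counted over all tested genes. The count of higher members went from 11 without shScr replicate 2 to 29 without shScr replicate 3. It was 19 without the pair nearest each other and 24 without all 4 libraries that stand apart. By role, 5 of 6 tested basement membrane genes and 3 of 3 crosslinking enzymes were higher in fitted value, and 2 of 3 fibrillar collagens lower.

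**Figure D3:**
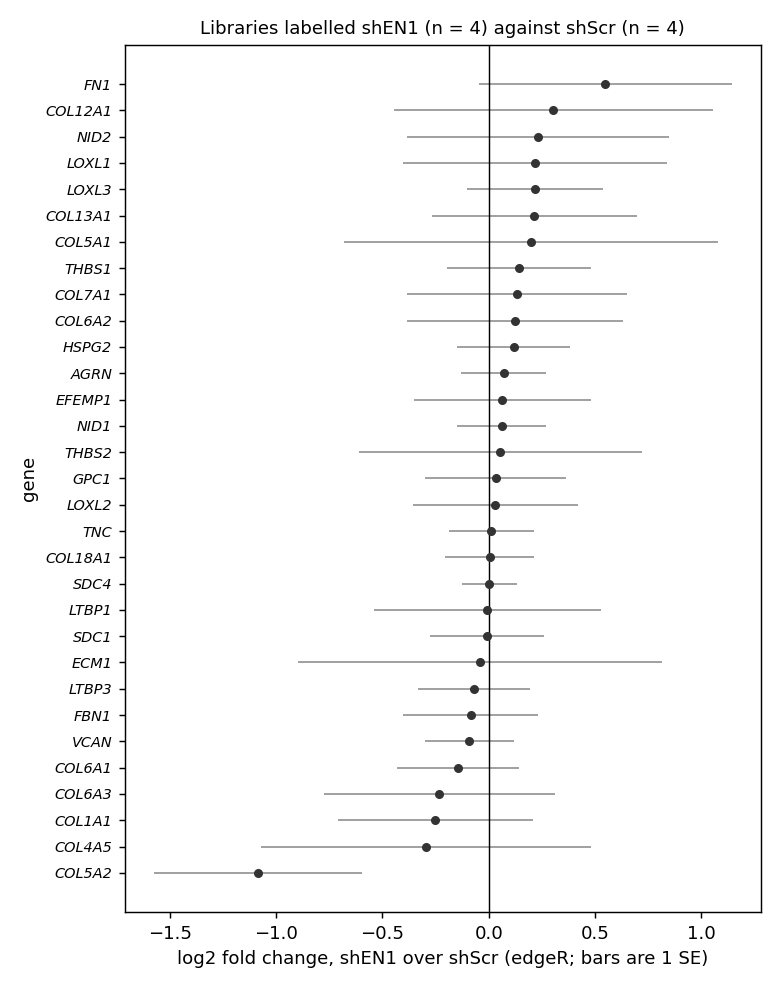
Log2 fold change of the 31 tested genes, libraries labelled shEN1 (n = 4) over shScr (n = 4) (x axis, edgeR; bars, 1 SE; y axis, genes ordered by value). 20 points lie above 0 and 11 below, and only COL5A2, at -1.09, has an unadjusted p under 0.05.

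For the genes with the highest level per kilobase, the fold changes were small. The log2 fold change was 0.0032 for SDC4 (SE 0.13), -0.0092 for SDC1 (SE 0.27), 0.14 for THBS1 (SE 0.34), 0.06 for NID1 (SE 0.21), -0.09 for VCAN (SE 0.21) and 0.07 for AGRN (SE 0.20). Those that varied most between libraries had wide errors, with 0.05 for THBS2 (SE 0.67), 0.30 for COL12A1 (SE 0.75), -0.04 for ECM1 (SE 0.86), -0.29 for COL4A5 (SE 0.78), 0.21 for COL13A1 (SE 0.48) and 0.13 for COL7A1 (SE 0.52). The edgeR adjusted p was 1.00 for each, and the exact permutation p ran from 0.543 to 1.00, where 4 against 4 allows 0.0286 at the lowest. HSPG2 had 0.12 (SE 0.27, edgeR adjusted p = 1.00). HSPG2 was called only in fits without the 4 libraries that stand apart, an omission chosen after seeing the data. It leaves 1 library per construct against shScr replicates 1 and 2, and assumes that a lone library varies like the shScr pair. For HSPG2 it removed shScr replicates 3 and 4, at 667 and 625 CPM, and shEN1 #1 replicate 1, at 312 CPM. It also removed shEN1 #2 replicate 1, at 569 CPM. The log2 fold change of HSPG2 was then 0.77 for shEN1 #1 (SE 0.14) and 0.71 for shEN1 #2 (SE 0.14). Both values rest on the same shScr libraries, so neither is separate support for the other. In these fits 7 of 14273 genes were called for shEN1 #1 (0.049%) and 8 for shEN1 #2 (0.056%). With both constructs pooled in the 4 libraries kept, HSPG2 had an edgeR adjusted p of 0.0700.

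Tested members varied more between libraries than genes at large. The SD of log2 CPM over 8 libraries had a median of 0.473 in the 31 tested members and 0.249 in all tested genes. The highest library exceeded the lowest by 2-fold or more in 24 of 31 members (77.4%, against 29%), and in 10 of 16 members (62.5%, against 14.2%) among genes with a mean of 10 CPM or more. shScr replicate 4 and shEN1 #2 replicate 1 were the highest libraries for 7 members (22.6%, against 18.8%), namely COL5A1, COL4A5, COL6A2, COL12A1, FN1, THBS1 and LTBP1. They were the lowest for 8 (25.8%, against 19.2%), namely NID1, COL7A1, COL13A1, THBS2, VCAN, SDC1, GPC1 and LOXL2. Among genes with a mean of 10 CPM or more, these libraries were the highest for 1 of 16 members (6.25%, against 18.2%) and the lowest for 7 (43.8%, against 23.5%). shScr replicate 3 and shEN1 #1 replicate 1 were the highest for 6 members (19.4%, against 7.06%), which are COL1A1, COL6A3, THBS2, FBN1, EFEMP1 and ECM1, and the lowest for none (against 6.82%). At a mean of 10 CPM or more, they were the highest for 2 of 16 members (12.5%, against 6.34%) and the lowest for 0 (against 8.19%). Some genes of the marker lists also differed in the first pair of libraries. The summed fibroblast and stellate markers stood at 18.1 and 15.7 CPM there and at 2.80 to 6.48 CPM elsewhere. Most of it was ACTA2, with THY1, DPT, CXCL12, MFAP5 and C7 at 0. KRT19 stood at 400 and 321 CPM against 831 to 1648 CPM, a value for 1 of the 6 ductal epithelial markers and not for the list. The sum of all 6 did not set this pair apart. It was 11691 and 11436 CPM there, beside 11974 CPM in shScr replicate 3 and 11674 CPM in shEN1 #1 replicate 1. The part of these marker genes in the levels of the members was not tested.

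**Figure D4:**
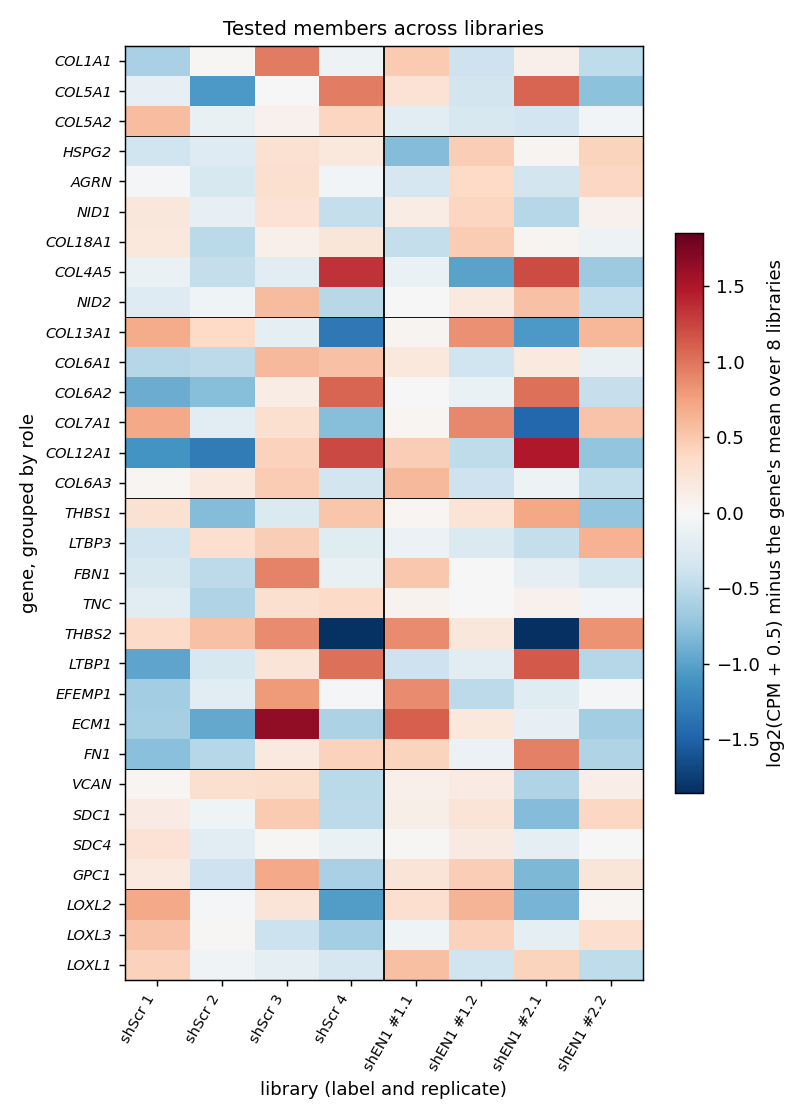
Log2(CPM + 0.5) of the 31 tested genes minus each gene's mean over 8 libraries (x axis, library; y axis, gene by role; colour, log2 units; the vertical line parts shScr from shEN1). The columns of shScr 4 and shEN1 #2.1 share their deep colours, as for THBS2, COL4A5 and COL12A1, and no row separates at the vertical line.

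Most genes of collagen folding and processing were expressed. Of 26 collagen folding and processing genes, 20 reached 1 CPM in every library, 22 were tested and 0 called (8 higher and 14 lower in fitted value, median log2 fold change -0.042). SERPINH1, the collagen chaperone HSP47, stood at 329 to 724 CPM and LOXL4, a further lysyl oxidase, at 189 to 539 CPM. Of 27 other collagen genes, 2 reached 1 CPM in every library, 8 were at 0 in all and 0 of 6 tested were called (4 higher, 2 lower, median 0.017). The highest was COL17A1, a hemidesmosome collagen, at 173 to 641 CPM (mean 63.9 CPM per kilobase). It stood at 181 and 173 CPM in shScr replicate 4 and shEN1 #2 replicate 1 and at 400 CPM or more elsewhere. Of 30 other glycoproteins and proteoglycans, 8 reached 1 CPM in every library and 0 of 13 tested were called (5 higher, 8 lower, median -0.017), with TGFBI, a TGF-beta induced matrix protein, highest at 82.1 to 370 CPM.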

How the data were processed

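RNA-seq of SUIT2 was analysed in 8 libraries. Per the study's methods, mRNA was purified with polyT beads and HISAT2 (genome hg19) and featureCounts turned paired-end reads into gene counts. GEO's processing notes name mm9 for these human libraries, and versions, annotation and strand setting are not given in the sources used here. The deposited values are raw counts, whole numbers for each gene. Genes that overlap in the counting annotation, as COL4A1 and COL4A2 do in GENCODE, could therefore share reads. Of 25702 identifiers, 23696 matched a RefSeq symbol (assembly GRCh38.p14, names and promoters only). Positions and union exon lengths came from GENCODE lifted to GRCh37, and union lengths understate levels per kilobase of genes with many isoforms.

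The members and gene lists were chosen with earlier results of these data known. Genes were filtered with filterByExpr (minimum count 10, 14333 kept), normalized with TMM and tested with edgeR 4.0.16 (R 4.3.3) with Benjamini-Hochberg adjustment at 0.05. CPM used TMM library sizes, log2 values a prior of 0.5 CPM, and single genes an exact two-sided permutation test over 70 assignments. Standard errors are the log2 fold change over the square root of F. Tests were tried on simulated data. Named with a fold change were EN1, the 6 tested members highest per kilobase, the 6 with the largest SD and any member called in a fit. COL5A2 was added after its value was seen. Alternatives were DESeq2 1.42.0, other size factors, other filters, a replicate block and leaving out libraries. Omitting 2 or 4 libraries was chosen after seeing the data.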

Additional observations from a re-analysis of the deposited data

Results flagged for a closer look

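In groups of 4 libraries, a member was set apart where its highest or lowest library lay far from the other 3 by Dixon's criterion. Of 62 groups examined 2 were set apart, where chance gives about 1 in 20 groups, or 3.1 here. ECM1 stood at 4.47 CPM in shScr replicate 3, above the other shScr libraries. VCAN stood at 429 CPM in shEN1 #2 replicate 1, below the other libraries labelled shEN1.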

How the results depend on the processing

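No gene was called in the main comparisons, and the few calls in alternatives depend on the setting, of which the cause was not tested. The pooled count of called genes was 2 by DESeq2, 1 with a replicate block, 1 without the 2 libraries nearest each other, 1 without the 4 that stand apart, and 0 to 1 when leaving out each library (1 without shScr replicate 4). For shEN1 #1 it was 3 by DESeq2, 1 without a filter, 2 and 7 without the 2 or 4 libraries, and 0 to 1 when leaving out each (1 without shEN1 #1 replicate 2 or shEN1 #2 replicate 1). For shEN1 #2 it was 8, and between constructs 1, without the 4 libraries. Correlations of deviations between libraries of equal replicate number ran from -0.374 to 0.515. With 2 libraries per construct, their deviations from the construct's mean mirror each other. These correlations therefore cannot decide whether equal numbers mark related libraries. The replicate block called no member. In the pooled comparison it had 6 of 31 members at an unadjusted edgeR p under 0.05, beside 271 of 14333 genes. Only shScr has replicates 3 and 4, so the block in effect takes these libraries out of the comparison with shEN1.

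Several log2 fold changes turned sign, not only those near 0. With the replicate block they were -0.042 for SDC4, -0.0033 for NID1, -0.14 for THBS2, 1.67 for ECM1, 0.14 for COL4A5, -0.43 for COL13A1 and -0.32 for COL7A1. The same block in effect leaves out shScr replicates 3 and 4. Under it COL12A1 went from 0.30 to 1.74, THBS1 from 0.14 to 0.39 and HSPG2 from 0.12 to 0.36, with the sign kept. SDC1 was 0.0015 without a filter, 0.046 without the 2 libraries and 0.28 without the 4, and ECM1 1.09 without the 4. Leaving out each library gave -0.059 to 0.10 for SDC4, -0.15 to 0.19 for SDC1, -0.10 to 0.36 for THBS1, -0.074 to 0.21 for NID1, -0.24 to 0.049 for VCAN, -0.051 to 0.19 for AGRN and -0.29 to 0.40 for THBS2. It gave -0.39 to 1.04 for COL12A1, -0.66 to 1.58 for ECM1, -1.37 to 0.55 for COL4A5, -0.060 to 0.51 for COL13A1, -0.21 to 0.45 for COL7A1 and -0.027 to 0.33 for HSPG2. When leaving out each library, the number of members higher in shEN1 ran from 11 to 29 and the members' median from -0.04 to 0.14. That median was 0.21 without the 4 libraries and 0.14 with the replicate block. Members at 1 CPM or more in every library numbered 22 to 23 when leaving out each library, and 23 at 0.5 CPM and 15 at 5 CPM. By library size only, without TMM, they numbered 21, and members below 1 CPM in every library numbered 15 rather than 17. Depth limits members near the floor of 3 counts.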
